A study of Mus musculus with 9 samples.

Results

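The genes of cholesterol synthesis, uptake, efflux and control were followed as a group of 33 genes in the sciatic nerves of mice that lack TDP-43 in myelinating glia. They were chosen by name: 18 enzymes that lead from acetyl-CoA to cholesterol, 4 genes that control the transcription factor SREBP2, 5 genes of uptake, transport and storage, and 6 genes of the liver X receptors (LXR) and of efflux. All 33 were found among the 36121 genes of the table, and all 33 averaged 1 or more across the 9 libraries, the minimum for the test, as did 15014 genes in all. In the nerves of the conditional knockout (cKO) the enzymes were low along the whole pathway. Their summed level was 63.9% of that in the control and 56.0% of that in the heterozygous nerves (cHet), and 17 of the 18 were lower in every cKO nerve than in every control nerve, as were 8.57% of all tested genes. By the test over all genes 5 enzymes fell against the control, where 0.633% of all tested genes were called lower. Against the cHet 15 fell, where 0.773% of all tested genes were called lower. These calls depended on the fit. With 1 library left out, the count of called members ranged from 0 to 6 against the control and from 1 to 13 against the cHet. With only the 2 groups compared in the fit it was 0 and 7. None of the other 15 genes passed this test in either comparison, where 0.932% of all tested genes were called higher in each. Against the cHet, Srebf2, Stard4, Abca1 and Mylip passed in the alternative fit with weighted libraries. Srebf2 or Stard4 alone passed in some others.

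Cholesterol is a main lipid of myelin. It hardly crosses from the blood into nerve, so that a Schwann cell building its myelin sheath relies largely on its own synthesis. The pathway condenses acetyl units to mevalonate, builds farnesyl pyrophosphate and squalene from it, closes squalene into the ring of lanosterol, and trims lanosterol to cholesterol. When sterols in the endoplasmic reticulum run low, SCAP escorts SREBP2 out of it to be cut, and the freed factor turns on the enzyme genes, whereas INSIG proteins hold SCAP back when sterols are plentiful. LXR are nuclear receptors that sense oxysterols and turn on efflux genes.

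The study sequenced RNA of whole sciatic nerves from 9 mice aged 21 days on the strain C57BL6, with 3 mice per genotype and each mouse 1 library. The control mice were Tardbp-fl/fl, in which both copies of the TDP-43 gene are floxed, and carried no Cre. The cHet mice were Cnp-Cre; Tardbp-fl/+ and the cKO mice were Cnp-Cre; Tardbp-fl/fl, so that cHet and cKO share the Cre. It acts in cells that use the Cnp locus, the myelinating glia, and its action in other cells of the nerve was not measured here. Values are normalized TPM (transcript abundance corrected for transcript length and library size, scaled further between libraries), and libraries are given in the order control ID-2743, ID-2746 and ID-2754, cHet ID-2742, ID-2745 and ID-2750, and cKO ID-2744, ID-2747 and ID-2748, after the numbers of the mice. The table holds no read counts, so no counting interval can be given for a single value. Tardbp, the targeted gene, stood at 198.9 ± 16.5 (SD, n = 3) in control nerves, 181 ± 4.90 (SD, n = 3) in cHet nerves and 100.1 ± 5.11 (SD, n = 3) in cKO nerves, measured over every exon and every cell type in the nerve.

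The labels and the tissue both limit these groups. Groups follow the sample titles, but the genotype field goes against the title in 3 libraries: cHet ID-2742 is entered there as floxed without Cre, and cKO ID-2744 and ID-2747 as heterozygous. Tardbp in those 2 cKO libraries was 102.6 and 94.2, next to 103 in cKO ID-2748, so that by this gene both stood with the group of their title. It was 177 in cHet ID-2742, but the cHet and control libraries overlap in Tardbp, which therefore does not tell these 2 groups apart. The myelinating Schwann cell markers identified the tissue, with Pmp22 at a mean of 27092 and Prx at 2248 normalized TPM in the control nerves. Markers of other tissues varied widely between libraries. The mean level of 10 neuron markers lay more than 1 log2 unit above the median library in control ID-2746, cHet ID-2742 and cKO ID-2748, that of 10 adipocyte markers in control ID-2743 and ID-2754, and that of 10 skeletal muscle markers in control ID-2743, cKO ID-2747 and cKO ID-2748. Each main count is therefore also given without these libraries.

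The promoters of the enzymes are shown first, because SREBP2 is known to act together with the factors NF-Y and Sp1 at short motifs close to the start site. In the RefSeq promoter windows of GRCm38.p6, which run from 250 bases before the start site to 50 after it, 27 of the 33 members had an entry, among them 15 of the 18 enzymes; Fdps, Fdft1, Sqle, Npc1, Stard4 and Abcg1 had none. The stretches printed here are Hmgcs1 (chr13:119690201-119690350, plus strand), whose window alone among the members held the 9-letter sterol regulatory element, Mvk (chr5:114444119-114444268, plus strand), with the largest number of NF-Y boxes, Lss (chr10:76531455-76531587, plus strand), the enzyme with the largest decrease, and, for contrast, Nr1h2 (chr7:44553966-44554115, minus strand), which held none of the motifs. None of the 4 overlaps an annotated exon. Capitals mark the sterol regulatory element TCACNCCAC, the NF-Y box CCAAT and the Sp1 box GGGCGG, each on either strand.
Hmgcs1: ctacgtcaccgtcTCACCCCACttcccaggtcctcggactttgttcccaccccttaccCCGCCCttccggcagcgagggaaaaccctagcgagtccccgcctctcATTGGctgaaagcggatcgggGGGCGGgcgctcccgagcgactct
Mvk: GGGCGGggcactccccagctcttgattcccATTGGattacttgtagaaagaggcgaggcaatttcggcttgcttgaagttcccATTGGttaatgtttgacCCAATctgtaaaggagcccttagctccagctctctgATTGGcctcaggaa
Lss: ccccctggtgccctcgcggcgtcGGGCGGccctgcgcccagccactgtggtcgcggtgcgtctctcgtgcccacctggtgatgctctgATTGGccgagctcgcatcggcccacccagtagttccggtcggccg
Nr1h2: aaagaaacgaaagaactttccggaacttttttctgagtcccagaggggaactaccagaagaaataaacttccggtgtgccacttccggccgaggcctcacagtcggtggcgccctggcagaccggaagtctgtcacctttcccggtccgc

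The NF-Y box was found in the windows of 14 of the 15 enzymes, all except Acat2, and in 6 of the 12 other members, against 41.1% of the 27025 genes with a window. The Sp1 box was found in 14 of the 15 enzymes, all except Pmvk, and in 9 of the 12 others, against 38.2% of all genes. The full sterol regulatory element stood only in Hmgcs1, with its first base at position -137, and was held by 1.44% of all genes. Its shorter form CACNCCAC, which is contained in the longer one, was matched in Acat2, Hmgcs1 and Insig1 and in 7.12% of all genes. The E-box form TCACGTGA, held by 1.12% of all genes, and the LXR element, a direct repeat of AGGTCA spaced by 4 bases and held by 0.01%, had no match among the members. These are matches of letters in a short window on both strands, and binding was not measured.

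**Figure D1:**
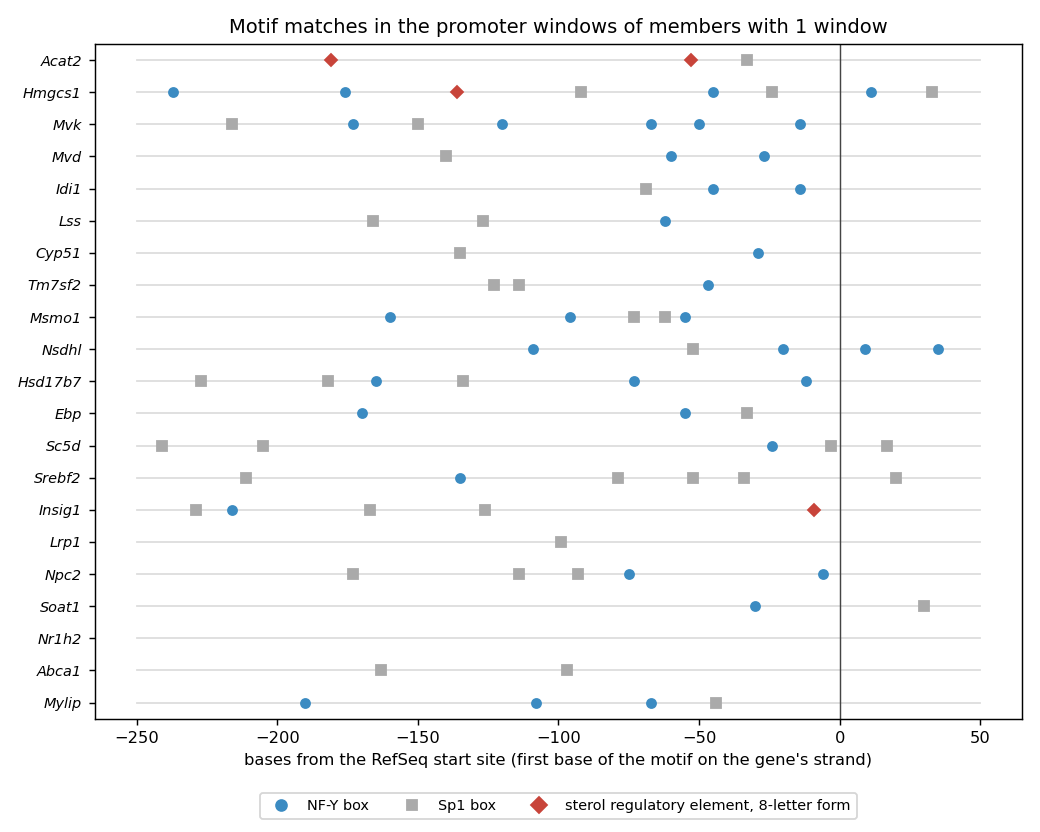
Position of 3 motifs (markers) in the promoter window of each member with a single window, in bases from the RefSeq start site. Most enzymes, from Acat2 to Sc5d, hold NF-Y and Sp1 boxes within 200 bases before the start site, and Nr1h2 holds none.

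The enzymes together carried 5339, 5422 and 4772 normalized TPM in the 3 control nerves, 5111, 6817 and 5789 in the cHet nerves and 3218, 3796 and 2908 in the cKO nerves. The highest cKO nerve thus lay below the lowest control or cHet nerve. All 18 log2 fold changes between cKO and control were below 0, from -1.14 to -0.41 with a median of -0.56, beside a median of -0.02 over all 15014 tested genes. The test was limma on log2(value + 0.5), in which a fold change is slightly understated for low genes, with Benjamini-Hochberg adjustment over all tested genes and a threshold of 0.05. It called 5 of the 33 members lower and 0 higher, where 0.633% of all tested genes were called lower and 0.932% higher. Without adjustment, all 18 enzymes had a p below 0.05 in limma, as did 1935 of the 15014 tested genes. In 18 members every cKO nerve lay below every control nerve, as in 8.57% of tested genes, and in 1 every cKO nerve lay above, as in 8.85%. cKO ID-2748 was the lowest of the 9 libraries for 16 of the 18 enzymes, and cHet ID-2745 was the highest for all 18. In bulk nerve, fewer cells that make these transcripts and less transcript per cell cannot be told apart.

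**Figure D2:**
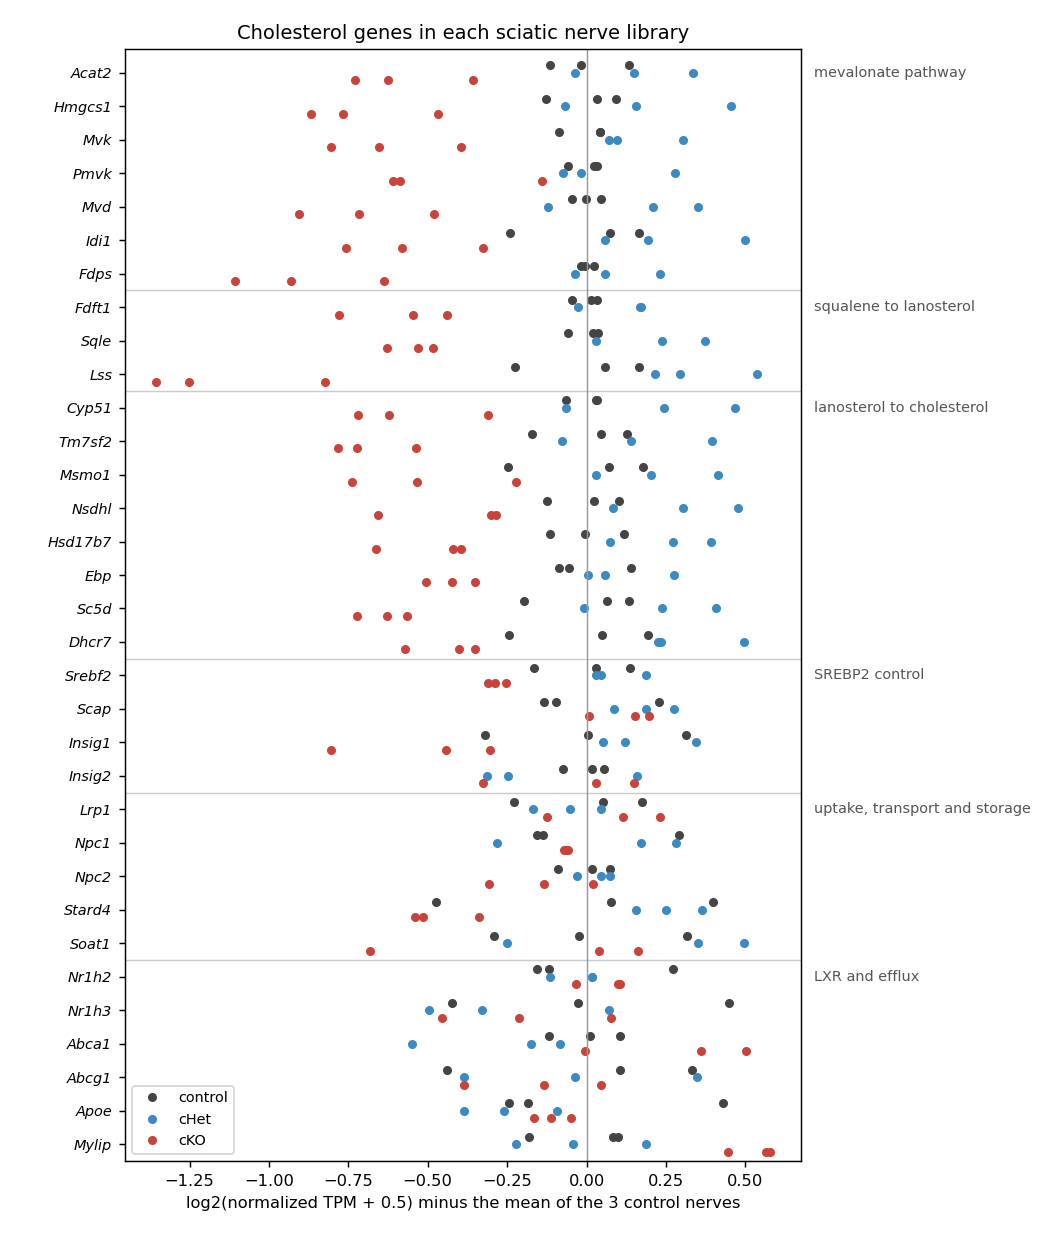
Level of each of the 33 members in each library, as log2(normalized TPM + 0.5) minus the mean of the 3 control nerves; points are single mice, coloured by genotype, and members are ordered by role. The cKO points lie left of the control points for 17 of 18 enzymes and are mixed with them for most members from Scap downwards.

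The mevalonate pathway, 7 of the enzymes, had a summed level in the cKO nerves of 62.1% of the control mean. Hmgcs1, the synthase that makes HMG-CoA, is the most abundant enzyme of the group, with 1716, 1789.6 and 1536 normalized TPM in the control, 1601, 2298 and 1866 in the cHet and 985, 1213 and 919.9 in the cKO. The cKO nerves lay below all others, at 61.8% of the control mean, but the difference did not pass the test (log2 fold change -0.70, standard error 0.17, adjusted p = 0.0982, limma). Fdps (ENSMUSG00000059743, chr3:89093588-89101959, minus strand), which makes farnesyl pyrophosphate, stood at 639.8, 658 and 647 in the control, 632, 761 and 674 in the cHet and 339.9, 416 and 301 in the cKO. The 3 control nerves differed by less than 20 units from one another, and the cKO nerves averaged 54.4% of their level. Fdps fell by 0.89 on the log2 scale (standard error 0.13, adjusted p = 0.0172, limma) and passed the threshold in 14 of the 24 alternative fits. Its exons share 1124 bases with the predicted gene Gm43738 on the same strand, so that the estimate could be split between them.

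Mvk (ENSMUSG00000041939, chr5:114444269-114460591, plus strand), the kinase that phosphorylates mevalonate, stood at 82.2, 82.1 and 75.1 in the control, 85.3, 98.5 and 83.9 in the cHet and 50.5, 60.5 and 45.4 in the cKO. It fell by 0.62 on the log2 scale (adjusted p = 0.0465, limma), and its cKO and control nerves did not overlap. Against the control Mvk passed the threshold in 8 of the 24 alternative fits. Mvd, the decarboxylase that yields isopentenyl pyrophosphate, stood at 111, 104 and 107 in the control, 98.4, 137 and 124 in the cHet and 65.0, 76.7 and 57.0 in the cKO. Its log2 fold change against the control was -0.70 (adjusted p = 0.0582, limma). Acat2, a thiolase that joins 2 acetyl-CoA at the start of the pathway, stood at 139, 154 and 129.9 in the control, 137, 178 and 156 in the cHet and 91.2, 109.8 and 84.8 in the cKO (log2 fold change against the control -0.57, adjusted p = 0.0879, limma). For both genes the cKO nerves were again the lowest of all. Pmvk, the next kinase after Mvk, and Idi1, the isomerase of isopentenyl pyrophosphate, ranged from 91.2 to 126 and from 264 to 356 in the cKO, against 134 to 143 and 379 to 502 in the control. Their log2 fold changes were -0.45 and -0.56, and neither passed the test (adjusted p = 0.218 and 0.182, limma).

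All 3 enzymes between farnesyl pyrophosphate and lanosterol were called lower against the control, where 0.633% of all tested genes were. In the 24 alternative fits, Fdft1 and Sqle each passed the threshold in 8 and Lss in 16. Fdft1 (ENSMUSG00000021273, chr14:63145150-63179578, minus strand), squalene synthase, the first step committed to sterols, stood at 220.1, 208 and 217 in the control, 211, 243 and 242 in the cHet and 147, 158 and 125 in the cKO. It fell by 0.59 on the log2 scale (standard error 0.11, adjusted p = 0.0374, limma). Its exons share 774 bases with Ctsb on the opposite strand, and no source used here states whether the libraries kept strand. Sqle (ENSMUSG00000022351, chr15:59315077-59331192, plus strand), the epoxidase that is one of the rate-limiting steps, stood at 154, 152 and 144 in the control, 153, 194 and 177 in the cHet and 104, 107 and 96.9 in the cKO. It fell by 0.55 on the log2 scale (standard error 0.10, adjusted p = 0.0390, limma), with an SD of 5.19 in the cKO and 5.19 in the control.

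Lss (ENSMUSG00000033105, chr10:76531588-76557138, plus strand), lanosterol synthase, which closes the rings, had the lowest share of the control level among the 33 members. It stood at 166, 154 and 127 in the control, 172, 215 and 182 in the cHet and 83.5, 62.0 and 57.6 in the cKO. This is 45.4% of the mean of the control and 35.7% of that of the cHet. Lss fell by 1.14 on the log2 scale against the control (95% interval -1.52 to -0.77, adjusted p = 0.0158, limma) and by 1.49 against the cHet (95% interval -1.87 to -1.12, adjusted p = 0.00583, limma). Its exons share 381 bases with 4930483K19Rik on the opposite strand.

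**Figure D3:**
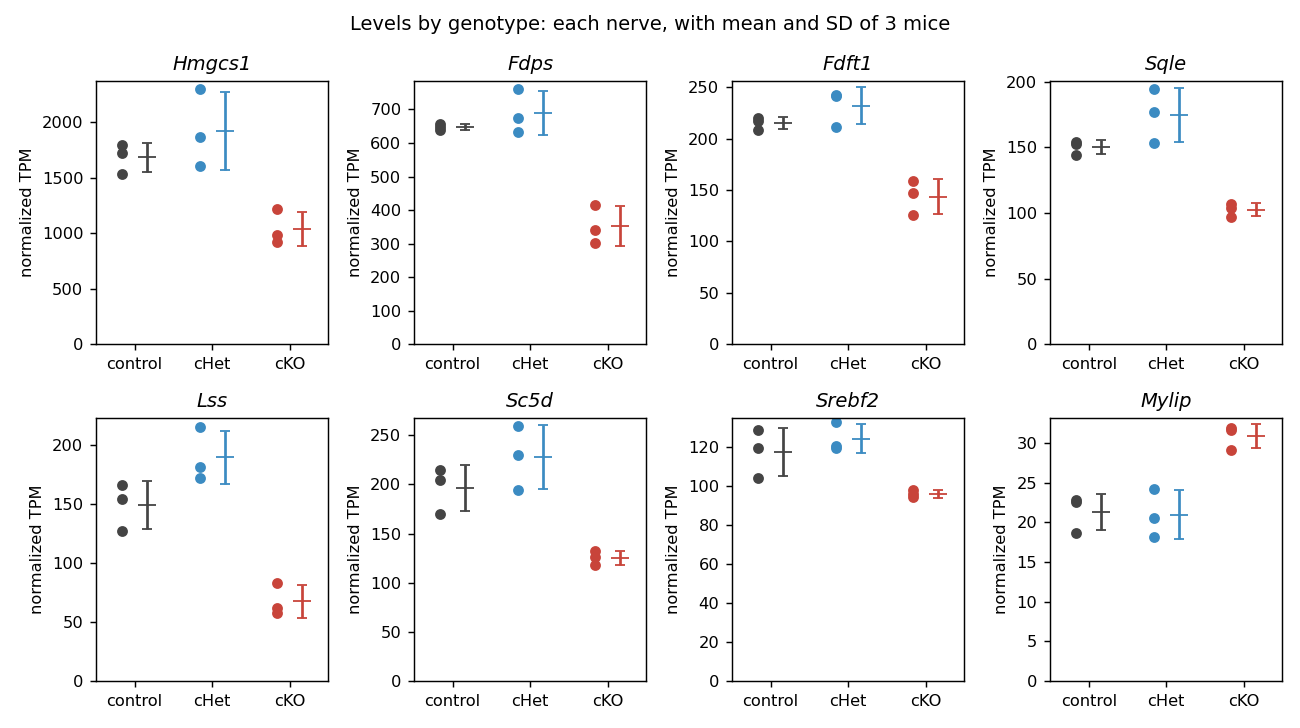
Normalized TPM of 6 enzymes, Srebf2 and Mylip in each nerve (points), with mean and SD of 3 mice per genotype beside them and axes from 0. The cKO points lie below the control and cHet points in the first 7 panels and above them for Mylip.

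From lanosterol to cholesterol, none of the 8 enzymes passed the test against the control, where 0.633% of all tested genes were called lower, while 7 of the 8 fell against the cHet, where 0.773% were. Their log2 fold changes against the control had a median of -0.50 and ranged from -0.68 to -0.41. Tm7sf2, a sterol reductase, stood at 143, 176 and 167 in the control, 153, 213 and 178 in the cHet and 97.7, 111 and 93.6 in the cKO. Sc5d, the desaturase of the sterol B ring, stood at 214, 204 and 170.2 in the control, 194, 259 and 230.4 in the cHet and 126, 132 and 118 in the cKO. Both came close to the threshold against the control, with log2 fold changes of -0.68 and -0.64 and an adjusted p of 0.0571 from limma for each. Against the cHet they fell by 0.83 and 0.85 (adjusted p = 0.0266 and 0.0201, limma). Tm7sf2 shares 532 exon bases with Vps51 on the same strand. Exons of Hmgcs1 share 557 bases with Gm48342 on the opposite strand. Exons of Idi1, Cyp51, Scap and Npc1 also overlap genes on the opposite strand, and those of Nr1h3 a gene on the same strand.

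Cyp51, the lanosterol demethylase, stood at 254, 253 and 237 in the control, 237, 343 and 294 in the cHet and 161, 200.05 and 150.3 in the cKO. Nsdhl, which helps remove the methyl groups at carbon 4, stood at 97.3, 92.1 and 83.2 in the control, 96.1, 126 and 112 in the cHet and 73.5, 74.4 and 57.4 in the cKO. Both fell against the cHet, by 0.77 and 0.70, just inside the threshold (adjusted p = 0.04995 and 0.0482, limma). In the 24 alternative fits they passed against the cHet in 7 and 6. Hsd17b7, the reductase of the same step, stood at 69.6, 63.9 and 59.1 in the control, 67.4, 84.3 and 77.5 in the cHet and 47.7, 48.6 and 40.2 in the cKO. Ebp, the sterol isomerase, stood at 46.7, 53.5 and 45.7 in the control, 50.6, 58.8 and 48.7 in the cHet and 34.0, 37.9 and 36.1 in the cKO. They fell by 0.74 and 0.54 against the cHet (adjusted p = 0.0231 and 0.0446, limma), and their log2 fold changes against the control were -0.49 and -0.43.

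Dhcr7, a reductase of the last steps, stood at 64.7, 58.5 and 47.7 in the control, 66.1, 79.9 and 66.6 in the cHet and 44.2, 37.9 and 42.6 in the cKO. It fell by 0.76 against the cHet (adjusted p = 0.0305, limma), and its log2 fold change against the control was -0.44 (adjusted p = 0.183, limma). Control ID-2754 was the lowest control nerve for Dhcr7 and lay only a little above the cKO. Msmo1, the methyl sterol oxidase, was the single enzyme whose cKO and control nerves overlapped: it ranged from 326 to 467 in the cKO and from 459 to 616 in the control (log2 fold change -0.50, adjusted p = 0.252, limma).

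The cKO was then set against the cHet, which also carries Cnp-Cre. All 18 enzymes were lower in every cKO nerve than in every cHet nerve, with log2 fold changes from -1.49 to -0.51 and a median of -0.76, beside 0.02 over all tested genes. By limma 15 of the 33 members fell and 0 rose, where 0.773% of all tested genes were called lower and 0.932% higher. The 15 are all enzymes, and the 3 enzymes not called were Pmvk, Idi1 and Msmo1 (adjusted p = 0.151, 0.0557 and 0.0916, limma). Of the 24 alternative fits, the called enzymes passed in as few as 6 (Nsdhl) and as many as 21 (Lss). In all, 21 members were lower in every cKO nerve, as were 11.0% of tested genes, and 2 were higher in every cKO nerve, as were 13.3%. Both comparisons use the same cKO nerves, and they are given side by side. Setting the libraries to the same sum moved the median of all tested genes to -0.12 on the log2 scale for this comparison; the median of the enzymes was then -0.91, so that they lay as far below the other genes as before.

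Between cHet and control no member passed the test. limma called 0 of the 33 members, as it called 0% of all tested genes, with 408 genes and 1 member, Dhcr7, at an unadjusted p below 0.05, and the count of members stayed at 0 in each of the 24 alternative fits. The enzymes' log2 fold changes were all above 0, from 0.06 to 0.35, with a median of 0.20 beside -0.03 over all tested genes. In Mvk, Lss and Dhcr7 every cHet nerve lay above every control nerve, as in 2.69% of tested genes. Without cHet ID-2745, the highest library, the median was 0.09, and without cHet ID-2742 it was 0.30.

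**Figure D4:**
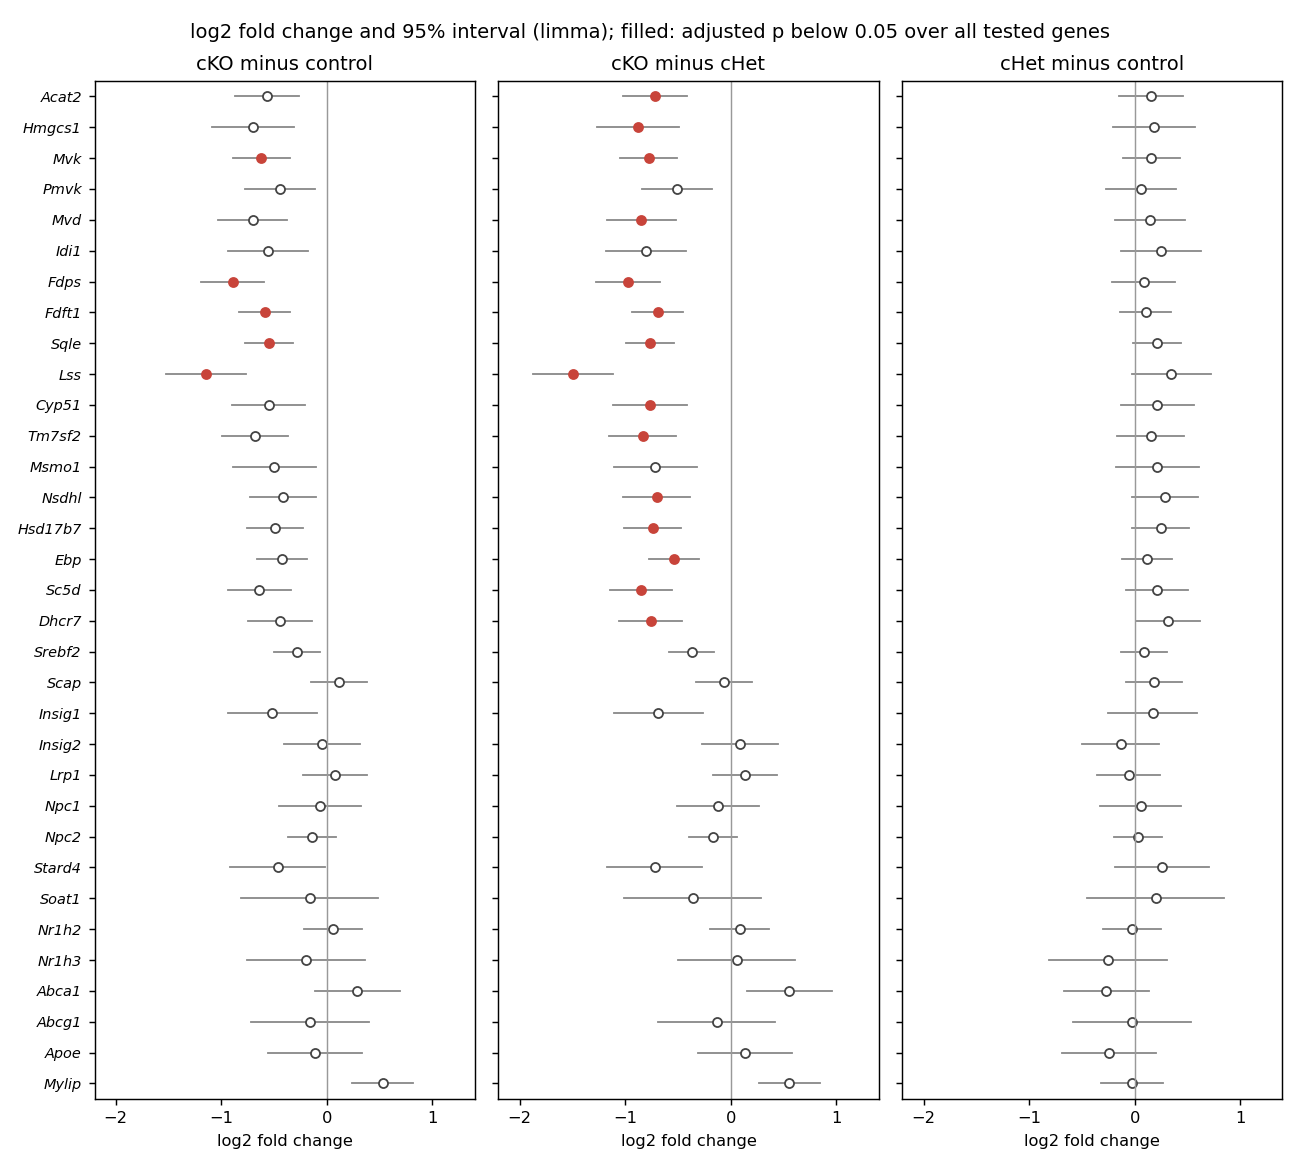
log2 fold change (points) with 95% interval (lines) of the 33 members from limma, for cKO against control, cKO against cHet and cHet against control; filled points have an adjusted p below 0.05 over all tested genes. The first 2 panels hold 5 and 15 filled points, all enzymes left of 0, and the last panel holds none.

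None of the 4 genes of SREBP2 control passed the test, which called few genes of any kind. Against the control, 0.633% of all tested genes were called lower and 0.932% higher. Srebf2, which encodes SREBP2 itself, ranged from 94.3 to 98.0 in the cKO, from 104 to 129 in the control and from 119 to 133 in the cHet. The cKO nerves thus lay below all others by a small margin (log2 fold change -0.28 against the control, adjusted p = 0.233, and -0.37 against the cHet, adjusted p = 0.111, both from limma). Against the cHet it passed the threshold in 2 of the 24 alternative fits, with quantile normalization (adjusted p = 0.0456, limma) and with weighted libraries (adjusted p = 0.0218, limma). Insig1, which retains SCAP and is itself a known SREBP2 target, stood at 169 ± 29.3 (SD, n = 3) in cKO nerves, 243 ± 52.9 (SD, n = 3) in control nerves and 271 ± 29.3 (SD, n = 3) in cHet nerves. It overlapped with the control and lay below every cHet nerve (log2 fold changes -0.52 and -0.69, adjusted p = 0.268 and 0.130, limma). Scap, the escort, and Insig2, the relative of Insig1, had log2 fold changes of 0.12 and -0.05 against the control, with 95% intervals from -0.15 to 0.38 and from -0.41 to 0.31.

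Among the 5 genes of uptake, transport and storage, 0 were called in either comparison with the cKO. This count says little for 5 genes, since 0.633% and 0.773% of all tested genes were called lower. Stard4, a carrier of cholesterol between membranes, stood at 37.2 ± 2.94 (SD, n = 3) in cKO nerves, 53.1 ± 15.6 (SD, n = 3) in control nerves and 61.7 ± 4.49 (SD, n = 3) in cHet nerves. Its log2 fold change was -0.47 against the control and -0.72 against the cHet (adjusted p = 0.365 and 0.133, limma), and every cKO nerve lay below every cHet nerve. It passed the threshold against the cHet in 4 of the 24 alternative fits, with an adjusted p of 0.0301 to 0.0323 from limma. Lrp1, a lipoprotein receptor, Npc1 and Npc2, which release cholesterol from lysosomes, and Soat1, which esterifies it for storage, had log2 fold changes of 0.07, -0.06, -0.14 and -0.16 against the control. The 95% intervals were from -0.23 to 0.38 for Lrp1, from -0.45 to 0.32 for Npc1 and from -0.37 to 0.09 for Npc2. Soat1 was the lowest of the 33 members, at 4.62 to 11.1 over the 9 libraries, and had the widest interval, from -0.81 to 0.49.

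None of the 6 LXR and efflux genes was called in the 3 comparisons, although Mylip and Abca1 passed against the cHet in 1 alternative fit, that with weighted libraries (adjusted p = 0.0411 and 0.0397, limma). Of all tested genes, 0.932% were called higher in each comparison with the cKO, so that no call among 6 genes says little. Mylip, the ligase that marks lipoprotein receptors for breakdown and is a known LXR target, stood at 22.8, 18.7 and 22.5 in the control, 18.1, 20.6 and 24.2 in the cHet and 31.6, 31.9 and 29.1 in the cKO. The cKO nerves lay above all others, at 145% of the control mean, with a log2 fold change of 0.53 against the control (adjusted p = 0.0982, limma) and 0.56 against the cHet (adjusted p = 0.0797, limma). Abca1, the exporter of cholesterol, stood at 10.1 ± 1.86 (SD, n = 3) in cKO nerves, 8.15 ± 0.673 (SD, n = 3) in control nerves and 6.73 ± 1.18 (SD, n = 3) in cHet nerves. Its cKO nerves overlapped with the control and lay above the cHet (log2 fold changes 0.29 and 0.56, adjusted p = 0.571 and 0.191, limma). Abcg1, another exporter, and Apoe, the carrier protein of lipids, had log2 fold changes of -0.16 and -0.11 against the control. Apoe was the most abundant of the 33 members and varied most in the control, where it ranged from 2244 to 3583, against 2369.6 to 2569.7 in the cKO. The receptors Nr1h2 (LXR beta) and Nr1h3 (LXR alpha) had log2 fold changes of 0.06 and -0.20 against the control, with 95% intervals from -0.22 to 0.33 and from -0.75 to 0.36.

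Further genes of sterol metabolism that are not members were counted from 34 listed genes, of which 32 were tested; Nr1h5 and Apoa1 lay below the mean of 1. The genes beyond farnesyl pyrophosphate that lead to other isoprenoids (6 tested) and the further genes of sterol sensing (7 tested) and of uptake and transport (12 tested) held 0 called genes in both comparisons with the cKO. Of all tested genes, 0.633% were called lower and 0.932% higher against the control, and 0.773% and 0.932% against the cHet. At these shares a count of 0 says little about lists this short. Their median log2 fold changes against the control were 0.12, 0.03 and -0.08. Among 7 tested genes listed under oxysterols and efflux, Apod alone was called, and any part of it in efflux was not measured. Apod, an apolipoprotein known to be high in injured nerve, stood at 2718, 2548 and 2302 in the control, 2958, 2339 and 2469 in the cHet and 8037, 5729 and 5715 in the cKO. It rose by 1.35 on the log2 scale against the control (adjusted p = 0.0129, limma) and by 1.31 against the cHet (adjusted p = 0.0145, limma). Every cKO nerve lay above all others, while the control and cHet nerves overlapped.

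The enzymes were set beside markers of the cells a nerve holds. The mean log2 level of the 10 Schwann cell markers, relative to the median library, ranged from -0.13 to 0.32 in the control, from -0.14 to 0.28 in the cHet and from -0.11 to 0.26 in the cKO, so that the genotypes overlapped. That of the enzymes ranged from -0.12 to 0.03 in the control, from 0 to 0.36 in the cHet and from -0.78 to -0.48 in the cKO. The enzymes minus the Schwann cell markers gave 0.15, 0.03 and -0.44 in the control, 0.14, 0.08 and -0.01 in the cHet and -0.61, -0.74 and -0.67 in the cKO, with control ID-2754 nearest to the cKO. By limma 0 of the 10 markers were called in either comparison with the cKO, where 0.633% and 0.773% of all tested genes were called lower. In each, 7 of the 10 had log2 fold changes below 0 and 3 above 0, with a median of -0.14 against the control. Mbp, a main protein of compact myelin, averaged 25160.6 in the control, 26003.8 in the cHet and 17829.9 in the cKO, and every cKO nerve lay below all others (log2 fold change -0.51 against the control and -0.54 against the cHet, adjusted p = 0.516 and 0.428, limma). Egr2, the transcription factor of myelination, averaged 31.8, 36.0 and 51.9, and S100b, a calcium-binding protein of Schwann cells, averaged 560.7, 539 and 847, with every cKO nerve above all others for both. Their log2 fold changes were 0.70 and 0.60 against the control (adjusted p = 0.115 and 0.148, limma) and 0.54 and 0.65 against the cHet (adjusted p = 0.207 and 0.111, limma). The part of these markers in the level of the enzymes was not tested.

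The markers of other tissues varied most between libraries. The summed adipocyte markers ranged from 109 to 3251 in the control, from 74.2 to 611 in the cHet and from 386 to 480.4 in the cKO, and their median log2 fold change was -1.24 for cKO against control, -1.63 for cHet against control and 0.56 for cKO against cHet. In the control the high adipocyte sums were those of ID-2743 and ID-2754, at 2278 and 3251, against 109 in ID-2746. The summed neuron markers ranged from 174 to 3782 in the control, 176 to 1469 in the cHet and 321 to 1623 in the cKO, and the skeletal muscle markers from 56.2 to 18667, 38.7 to 336 and 249 to 9849. The macrophage markers, cells that also handle myelin cholesterol, ranged from 361 to 658 in the control and from 451 to 619 in the cKO. All 6 endothelial markers had log2 fold changes below 0 in both comparisons with the cKO, with medians of -0.32 against the control and -0.27 against the cHet, and their sum ranged from 131 to 171 in the control, 147 to 168 in the cHet and 103 to 167 in the cKO. Kdr, a receptor of endothelial cells, averaged 12.3, 12.6 and 8.66, and every cKO nerve lay below all others (log2 fold changes -0.48 and -0.52, adjusted p = 0.150 and 0.110, limma). The 8 fibroblast markers had medians of -0.29 and -0.31, and their sum ranged from 4612 to 7534, 5745 to 6189.7 and 3697 to 7345. None of these lists had a called gene, where 0.633% of all tested genes were called lower and 0.932% higher against the control. No defining marker was at 0 in a group mean, and the part of these lists in the level of the enzymes was not tested.

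**Figure D5:**
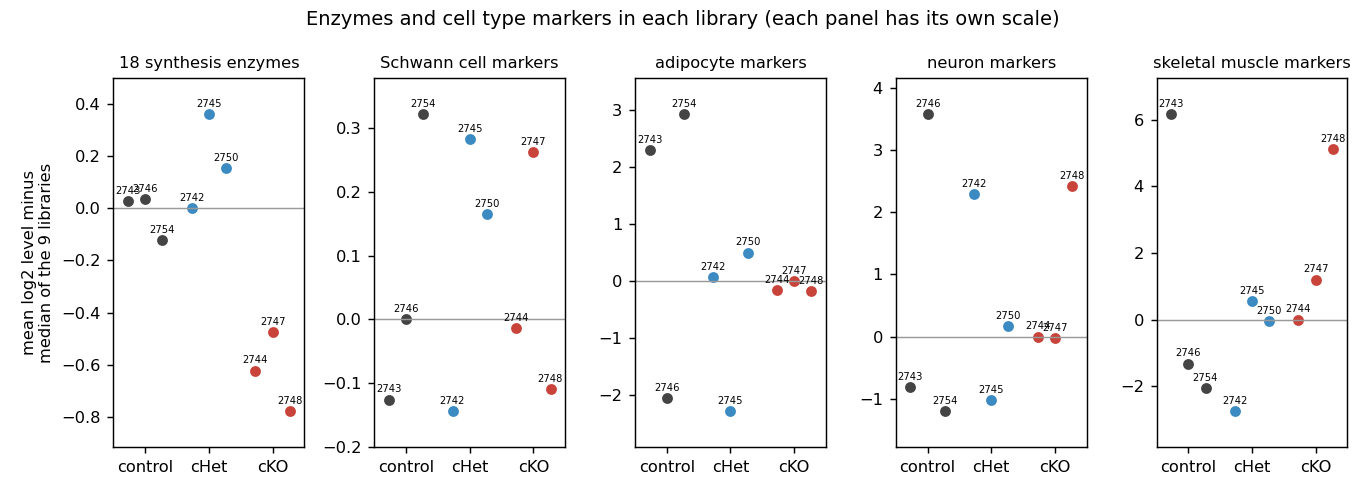
Mean log2 level of the 18 enzymes and of 10 markers each for Schwann cells, adipocytes, neurons and skeletal muscle in each library (points, labelled with the mouse), minus the median of the 9 libraries; each panel has its own scale. The enzymes of the cKO lie between -0.78 and -0.48, below the other groups, while the Schwann cell markers of the 3 genotypes overlap.

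The calls depended on which libraries were fitted. Without the libraries high in neuron, adipocyte or skeletal muscle markers, or without those whose genotype field differs, limma called 0 members against the control, and against the cHet it called 0, 7, 0 and 0. The median of the enzymes against the control was then -0.47, -0.62, -0.58 and -0.73, and against the cHet it was -0.81, -0.76, -0.79 and -1.05. Without the muscle-high libraries, or without those whose genotype field differs, the cKO held 1 library. In the latter fit it was ID-2748, the lowest library for 16 of the 18 enzymes. Without the adipocyte-high libraries the control held 1. With any single library left out, the median lay between -0.67 and -0.49 against the control and between -0.87 and -0.68 against the cHet. The count of called members then ranged from 0 to 6 against the control, with 0 without control ID-2743 or cKO ID-2748, and from 1 to 13 against the cHet, with 1 without cHet ID-2745, cHet ID-2750, cKO ID-2744 or cKO ID-2748.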

How the data were processed

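RNA of whole sciatic nerves from 9 mice was sequenced by the authors from Illumina TruSeq libraries. They deposited 1 table of normalized TPM, treated here as a signal. Tools named in the processing notes of the submitters are kallisto 0.44.0 and sleuth 0.30.0, with GRCm38 as the build; the annotation behind this table, strandedness and the scaling between libraries are not stated in the sources used. Library sums ran from 934932 to 1158094, so that the values are TPM scaled further. TPM keep no depth per library.

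Symbols were matched by Ensembl identifier for 35471 of 36121 genes. The 15014 genes that averaged 1 or more were taken as log2(value + 0.5) into 1 linear model over the 3 groups (limma 3.58.1, R 4.3.3; empirical Bayes moderation with a trend), and p-values were adjusted over these genes by Benjamini-Hochberg, with 0.05 as the threshold. Every adjusted p is from limma. The model was tested on simulated data. Motifs were searched in RefSeq windows of GRCm38.p6 with Python 3.11.15, and gene coordinates are those of GENCODE M21 on GRCm38. The labels give no litter or other pairing for each mouse, and no sample was dropped or imputed in the main comparisons. A total of 24 alternatives were run (pseudocount, low-value filter, scaling, samples, sex, variance model, weights, libraries left out).

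The members, the gene lists and the alternatives were chosen with earlier results of these data known. Values in every library are given for members past the threshold in any comparison and for the 12 with the lowest p in cKO against control, and the others by range. Some genes of the pathway and of the marker lists are not reported here.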

Additional observations from a re-analysis of the deposited data

How the results depend on the processing

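In the 24 alternative fits, none of the 16 members given by library changed sign in either comparison with the cKO. The count of members called for cKO against control was 5. It was 2 with no filter on low values, 2 with median of ratios scaling, 2 without a mean-variance trend, 3 with sex as a covariate, 10 with quantile normalization, 11 with libraries rescaled to the same sum and 0 with only the 2 groups compared in the fit. Leaving out 1 library gave 0 to 6: 0 without control ID-2743 or cKO ID-2748, 1 without control ID-2746, control ID-2754 or cKO ID-2744, 2 without cHet ID-2750, and 3 without cHet ID-2745 or cKO ID-2747. It was 0 without the libraries high in neuron, in adipocyte or in skeletal muscle markers and 0 without those whose genotype field differs.

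For cKO against cHet the count was 15. It was 22 with weighted libraries (20 lower and 2 higher), 19 with quantile normalization, 18 rescaled to the same sum, 16 with a mean of at least 5, 13 with median of ratios and 10 with sex; among members other than enzymes, weighted libraries called Srebf2 and Stard4 lower and Abca1 and Mylip higher, quantile normalization called Srebf2, and Stard4 was also called with only the 2 groups compared, without control ID-2754 and without the adipocyte-high libraries. It was 7 with no filter, 9 without a trend, 7 with only the 2 groups compared, 0 without the neuron-high, 7 without the adipocyte-high, 0 without the muscle-high libraries and 0 without those whose genotype field differs. Leaving out 1 library gave 1 to 13: 1 without cHet ID-2745, cHet ID-2750, cKO ID-2744 or cKO ID-2748, 7 without cKO ID-2747 and 9 without cHet ID-2742. The median of the enzymes moved beyond the replicate spread only without the libraries whose genotype field differs, to -0.73 against the control and -1.05 against the cHet. In that fit, and without the muscle-high libraries, the cKO holds 1 library, and without the adipocyte-high libraries the control holds 1; the lone library is assumed to vary like the other groups. Fewer libraries, or fewer groups in the fit, leave fewer degrees of freedom, and no filter adds genes to the adjustment; the cause of the other shifts was not tested. No paired analysis was possible because the labels give no litter or other pairing for each mouse.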
